A study of Mus musculus with 119 samples.

Results

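RSKi47, an inhibitor of the p90 ribosomal S6 kinases (RSKs), was compared with no inhibitor in bone marrow–derived macrophages (BMDMs) given LPS for 2 h. The comparison rests on 8 of the 119 RNA-seq libraries of the study, namely 4 libraries of WT BMDMs treated with RSKi47 and LPS (replicates 1 to 4) and 4 libraries of WT BMDMs treated with LPS alone (replicates 4 to 7), chosen by their labels. All cells in the comparison were WT C57BL/6 BMDMs, grown from bone marrow in L-cell conditioned medium and rested overnight in medium with little serum before LPS at 100 ng/ml. RSKi47 was added at 2 µM 10 min before LPS. The LPS-alone group received neither inhibitor nor a labelled vehicle, and the labels place the 2 groups in different experiments, so the inhibitor and the experiment cannot be told apart in any difference given here. The same arms without LPS (4 RSKi47 and 6 WT libraries), at 0.5 h (3 and 6) and at 1 h (4 and 6), and 6 libraries of LPS-treated Map3k8 D270A/D270A (D270A) BMDMs at 2 h, which carry a catalytically inactive TPL-2 kinase, served as points of reference. The RSKi47 libraries without LPS are labelled with 10 min of inhibitor, a shorter time than that of the 2 h libraries.

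LPS binds TLR4 on macrophages and, through the kinase TPL-2, activates MEK and then the MAP kinases ERK1 and ERK2. RSKs are kinases that ERK phosphorylates and activates, and they in turn phosphorylate proteins in the nucleus and the cytoplasm, among them transcription factors. In macrophages the ERK pathway is known for raising IL-10 and for restraining IFN-β and IL-12, while a small-molecule inhibitor acts on the kinases already present and need not alter their mRNA.

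The values were the authors' normalized expression on a log2 scale, on which a difference of 1 corresponds to a 2-fold change; the scale draws the lowest genes together, so folds of genes near its floor are understated, and the depth of each library cannot be read from these values, which are not read counts. The 4 RSKi47 libraries did not lie equally close together. Replicates 1 to 3 had a root mean square difference of 0.156 to 0.168 from their nearest partner, whereas replicate 4 lay 0.300 from its nearest. Among the WT libraries the nearest-partner values ran from 0.162 to 0.217, the highest belonging to replicate 7, and the nearest library of the other group was 0.374 to 0.446 away. All 9 macrophage markers were well above the expression floor, and their summed level, most of it Lyz2, was 18.91 to 19.04 in WT and 18.90 to 19.03 in RSKi47 libraries. Of the 9, Cd14 (-0.75), Adgre1 (-0.46) and Spi1 (-0.24) were lower with RSKi47, and Mertk (0.58) and Lyz2 (0.18) were higher. Of 10 neutrophil markers, 5 were below the floor in all 8 libraries, Ly6g, Elane and Mpo among them, while 6 of the 7 tested were higher with RSKi47 and the summed level was 9.18 to 9.66 in WT and 10.12 to 10.68 in RSKi47 libraries. Of 5 fibroblast markers, Col3a1, Pdgfra and Dcn were below the floor, and the summed level was 4.07 to 4.495 in WT and 5.34 to 6.501 in RSKi47 libraries. The part of these markers in the results was not tested, and in bulk RNA fewer cells of a type and less RNA per cell cannot be told apart.

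With RSKi47, 132 genes were lower and 107 were higher at 2 h, by at least 2-fold at an adjusted p below 0.05, of 11971 genes tested. These 239 calls are 2.00% of the genes tested, with 1.10% lower and 0.894% higher. By the adjusted p alone 2945 genes (24.6%) were lower and 3295 (27.5%) higher, while the median difference over all genes was 0.02. The 4 libraries of one group lay entirely to one side of the other in 126 of the 132 lower and 103 of the 107 higher genes, and over all genes tested in 2281 that were lower (19.1%) and 2399 that were higher (20.0%). Without replicate 4 of the RSKi47 group, 221 genes were called, 197 of them shared, and without replicate 7 of the WT group 228, 215 of them shared. Differences at 2 h also followed transcript length, with a Spearman rho of 0.313 across 11579 genes, which are not independent replicates. The median length was 2644 bases for lower, 3984 for higher and 3372 for all genes. With the length trend subtracted, an alternative added after the data had been seen, 212 genes were called (128 lower and 84 higher), and 198 of them were shared.

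**Figure D1:**
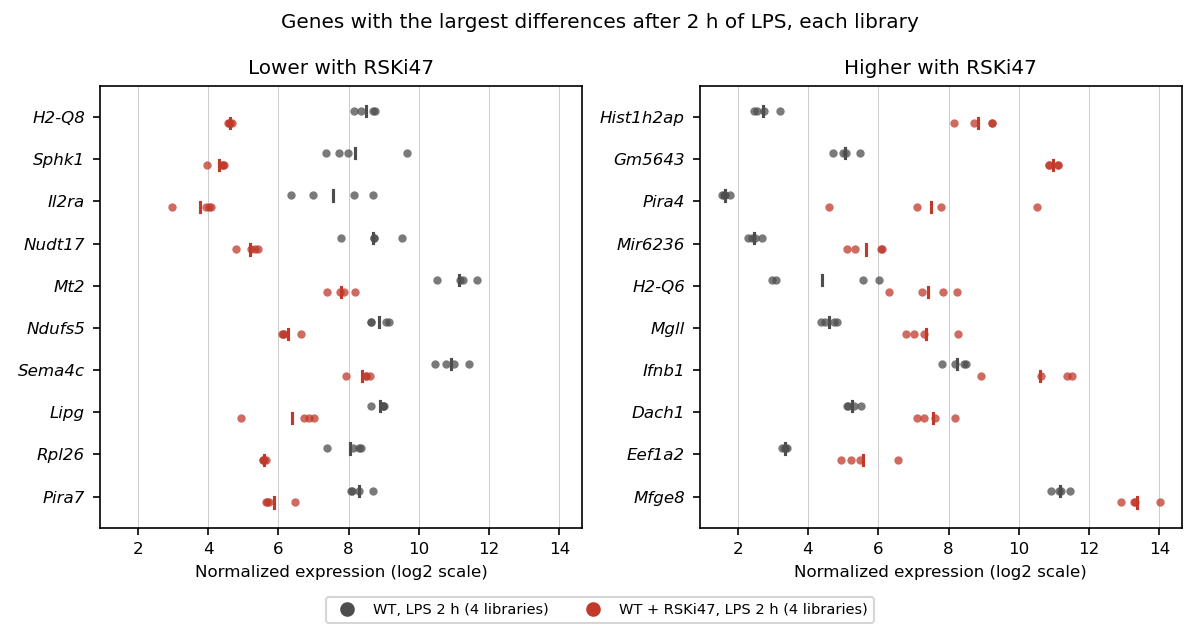
Normalized expression (log2 scale, horizontal axis) of the 10 called genes with the largest difference in each direction among those whose groups do not overlap, with one point per library and a bar at each group mean, for WT with LPS and WT with RSKi47 and LPS at 2 h. Sphk1 lay at 7.34 to 9.66 in the WT and 3.98 to 4.47 in the RSKi47 libraries.

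The mRNAs of the kinases that RSKi47 acts on were at like levels in both groups, and no member of the list of ERK and RSK pathway kinases reached a 2-fold change. Rps6ka1, which encodes RSK1, was at 10.88, 10.94, 10.83 and 11.02 in WT and 10.93, 10.94, 10.85 and 10.95 in RSKi47 libraries (difference 0.00, adjusted p = 0.961). Rps6ka2 (RSK3) and Rps6ka3 (RSK2) differed by 0.15 and -0.15, with adjusted p values of 0.134 and 0.123. Rps6ka4 and Rps6ka5, which encode the related mitogen- and stress-activated kinases MSK2 and MSK1, passed the test and were lower by less than 2-fold (-0.24 and -0.46). The list as a whole had 9 of 19 members lower, 3 higher and 7 that did not pass, with a median of -0.14. By the same adjusted p alone 24.6% of all genes tested were lower and 27.5% higher. Map3k8, the gene of TPL-2, was lower by 0.72 on the log2 scale (adjusted p = 3.65e-13), as was Tnip2, the gene of its binding partner ABIN-2 (-0.90, adjusted p = 2.69e-23). Mapkapk3, a kinase downstream of p38, was lower in all 4 RSKi47 libraries (10.81 to 10.87, against 11.55 to 11.73 in WT).

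Beside H2-Q8, which is given with its close copies below, the largest decreases were in Sphk1, Il2ra and Nudt17, 3 genes at a low level without LPS (WT means 2.93, 2.89 and 3.13). Sphk1 encodes sphingosine kinase 1, which makes sphingosine-1-phosphate, and lies at chr11:116530836-116536675 (GRCm38). Its level was 7.72, 7.97, 9.66 and 7.34 in the WT libraries and 4.47, 4.43, 4.40 and 3.98 in the RSKi47 libraries. The groups were far apart, replicate 6 was the highest of the WT libraries, and the fold was 14.5 (difference -3.86 ± 0.21 SE, adjusted p = 1.08e-30). Without LPS the difference was of the other sign (0.76, adjusted p = 0.000413). Il2ra, the α-chain of the IL-2 receptor (chr2:11642792-11693194), was at 6.98, 6.37, 8.71 and 8.16 in WT and 4.08, 3.95, 4.04 and 2.96 in RSKi47 libraries, 13.9-fold lower (adjusted p = 4.2e-29). Nudt17, a gene of the Nudix hydrolase family (chr3:96705892-96708916), was at 8.72, 8.72, 9.52 and 7.80 in WT and 5.22, 5.33, 5.44 and 4.79 in RSKi47 libraries, 11.3-fold lower (adjusted p = 1.5e-19). Neither Il2ra nor Nudt17 passed the test without LPS (0.08 and 0.15).

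Promoters are shown for Sphk1 and Il2ra, among the leading lower genes, and for Ifnb1, the higher cytokine described below, as the 250 bases upstream of a transcript start listed in RefSeq GRCm38.p6, 5′ to 3′ on the strand of the gene, with matches to a κB site (the element bound by NF-κB) in capitals. They were shown because they hold such a match, whereas the listed window of Nudt17, which lies within the annotated span of that gene, held no match to the motifs searched and is not shown. For Sphk1 the most upstream of 5 listed windows, which lies within the annotated span of the gene, is shown, chr11:116530850-116531099 on the plus strand, with 1 match 91 bases before that transcript start. The Il2ra window, chr2:11642542-11642791 on the plus strand, held 2 overlapping matches, and the Ifnb1 window, chr4:88522795-88523044 on the minus strand, held 1 match 116 bases before the start.
Sphk1: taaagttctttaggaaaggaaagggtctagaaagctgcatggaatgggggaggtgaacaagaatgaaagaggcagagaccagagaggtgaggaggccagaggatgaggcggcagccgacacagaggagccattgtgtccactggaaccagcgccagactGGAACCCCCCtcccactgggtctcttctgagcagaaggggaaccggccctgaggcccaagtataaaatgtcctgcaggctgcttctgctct
Il2ra: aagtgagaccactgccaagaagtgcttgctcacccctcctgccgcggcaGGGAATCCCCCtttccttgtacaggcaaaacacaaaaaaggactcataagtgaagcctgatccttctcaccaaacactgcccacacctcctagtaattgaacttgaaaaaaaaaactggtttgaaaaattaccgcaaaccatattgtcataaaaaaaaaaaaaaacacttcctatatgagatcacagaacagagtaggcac
Ifnb1: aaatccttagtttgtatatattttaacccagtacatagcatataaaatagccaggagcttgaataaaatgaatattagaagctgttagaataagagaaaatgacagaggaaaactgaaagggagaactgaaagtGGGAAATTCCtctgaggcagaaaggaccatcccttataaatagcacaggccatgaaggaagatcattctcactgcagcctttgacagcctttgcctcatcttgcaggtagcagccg
Matches were searched on both strands and are a description of letters, not of binding. A κB site was present in 15 of 98 lower genes with a listed promoter (15.3%), in 3 of 71 higher genes (4.23%) and in 10.6% of 9215 tested genes. The AP-1 motif TGANTCA, in which N is any base, was in 16 of the 98 lower genes (16.3%), in 1 of the 71 higher genes (1.41%) and in 5.55% of all. The cAMP response element TGACGTCA was in 6 lower (6.12%) and 2 higher genes (2.82%), against 3.17% of all. Over all 32851 promoter windows in the table the shares were 7.25% for the κB site, 6.75% for AP-1 and 1.55% for the cAMP response element. The CArG box, bound by SRF, was in 1 lower gene, no higher gene and 1.27% of all, and the IFN-stimulated response element in 3 lower genes, 4 higher genes and 3.35% of all.

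Further lower genes were Mt2, Sema4c and Lipg. Mt2, a metal-binding metallothionein, was at 11.16, 11.25, 11.65 and 10.51 in WT and 8.19, 7.86, 7.75 and 7.38 in RSKi47 libraries (10.2-fold, adjusted p = 2.36e-14), and it was already lower without LPS (-1.42, adjusted p = 7.57e-05). Its neighbor Mt1, named after its values were seen, was also lower (-2.03 at 2 h and -1.05 without LPS). Sema4c, a membrane semaphorin, was at 10.77, 11.00, 11.43 and 10.47 in WT and 8.49, 8.61, 8.50 and 7.93 in RSKi47 libraries, 5.80-fold lower (adjusted p = 9.95e-33). Lipg, which encodes endothelial lipase, was at 8.65 to 9.01 in WT and at 6.88, 6.74, 7.01 and 4.93 in RSKi47 libraries, with replicate 4 the lowest. Its difference of -2.51 became -2.03 without that library.

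Each list below is counted by the adjusted p alone, to be read against the 24.6% of all genes tested that were lower and the 27.5% that were higher, and calls against 1.10% and 0.894%. Of 27 immediate early genes, which are switched on within minutes of a stimulus without new protein, 12 were lower, 4 were higher and 11 did not pass, with a median of -0.12, and 2 were called in each direction. Fosl2, a subunit of the AP-1 transcription factor, was at 11.68, 11.94, 12.45 and 11.27 in WT and 10.00, 10.09, 9.92 and 9.97 in RSKi47 libraries (3.57-fold lower, adjusted p = 7.47e-22), and Ier3, an early survival gene, was 2.34-fold lower. Nr4a3, a nuclear receptor, was at 7.95 to 8.51 in WT and 9.98, 10.03, 9.96 and 8.80 in RSKi47 libraries, and was 2.72-fold higher (adjusted p = 1.13e-08). Klf4, a zinc-finger transcription factor, was 2.14-fold higher (adjusted p = 5.91e-14), but fell below 2-fold without RSKi47 replicate 3 (0.93). Fos and Egr1, the best known of these genes, had passed their peak at 2 h: Fos differed by -0.38 (adjusted p = 0.0116) and Egr1 by -0.04 (adjusted p = 0.867), with overlapping groups for Egr1. Egr3 was at 6.96 to 7.31 in WT and at 8.23, 8.34, 8.13 and 7.00 in RSKi47 libraries. The difference of 0.80 (adjusted p = 2.08e-05) became 1.11 without replicate 4, which lay among the WT values. Batf, an AP-1 family member named after its values were seen, was 3.46-fold lower (adjusted p = 7e-25).

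Lists of genes that restrain ERK signaling and of targets of the transcription factor CREB were counted next. Of 16 feedback inhibitors, 7 were lower, 4 higher and 5 did not pass (median -0.17). The 3 called members were all lower, namely Errfi1, an inhibitor of the EGF receptor (-1.68, adjusted p = 8.59e-15), and the phosphatases Dusp2 (-1.47, adjusted p = 3.04e-16) and Dusp1 (-1.32, adjusted p = 7.34e-20). Dusp1, which removes phosphate from p38 and JNK, was at 13.40, 13.73, 13.88 and 13.38 in WT and 12.45, 12.44, 12.50 and 11.73 in RSKi47 libraries. Dusp4, Dusp8, Dusp10 and Spry2 were higher, by 0.30 to 0.56. Of 17 CREB target genes 4 were lower, 5 higher and 8 did not pass, with a median of 0.03, which is close to the shares of all genes (24.6% lower and 27.5% higher). Il10, Dusp1 and Nfil3, a transcription factor, were the 3 called lower and Nr4a3 the 1 called higher, and without RSKi47 replicate 4 Nfil3 fell below 2-fold (-0.75), which left 2 called lower. Of 13 SRF cytoskeletal targets, 4 were lower and 6 higher (median 0.13), and Ctgf, a secreted matrix protein called higher at 1.06, fell below 2-fold without RSKi47 replicate 4 (0.81).

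Il10, the gene of the anti-inflammatory cytokine IL-10 (chr1:131019845-131024970), was at 9.22, 9.38, 9.69 and 9.46 in the WT libraries and at 7.94, 7.77, 7.54 and 6.71 in the RSKi47 libraries. The groups did not overlap and the level was 3.85-fold lower (difference -1.95 ± 0.24 SE, adjusted p = 2.75e-11). Most of the list of genes of IL-10, STAT and Socs signaling was lower as well: 10 of 14 tested were lower, 1 was higher and 3 did not pass, and the median difference was -0.75, against 0.02 over all genes. The 5 called members were Il4ra, the IL-4 receptor α-chain (-1.68, adjusted p = 4.34e-34), Cish, an inhibitor of cytokine receptors (-1.43), Sbno2, a corepressor induced by IL-10 (-1.38), Bcl3, an atypical IκB protein (-1.22), and Nfil3 (-1.09). Il4ra was at 12.72, 12.85, 13.36 and 12.37 in WT and 11.18, 11.14, 11.18 and 11.06 in RSKi47 libraries. Socs3, a feedback inhibitor of STAT3, was lower by 0.88 (adjusted p = 2.28e-10), while Stat3 did not pass (-0.15, adjusted p = 0.0768). Without RSKi47 replicate 4 the called members of this list were 4.

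Of 22 cytokines tested, 9 were lower, 6 higher and 7 did not pass, with a median of -0.02. Beside Il10, the called lower genes were Tnfsf9, which encodes the ligand of 4-1BB (-1.08, adjusted p = 2.32e-11; -0.99 without WT replicate 6 and -0.98 with the length trend subtracted), and Csf2, the gene of GM-CSF. Csf2 was at 6.27, 5.94, 5.59 and 6.55 in WT and 5.16, 4.63, 4.84 and 5.54 in RSKi47 libraries (-1.05, adjusted p = 3.88e-06), and the difference was -0.89 without WT replicate 7. Pro-inflammatory cytokines that passed with RSKi47 included Tnf (0.40, adjusted p = 0.000319), Il6 (0.93, adjusted p = 0.000453) and Il12b, the p40 subunit of IL-12 and IL-23 (0.87, adjusted p = 0.00386), all higher, and Il1b, which was lower (-0.41, adjusted p = 0.0313). Il6 was at 8.89, 8.43, 8.32 and 8.47 in WT and 9.38, 10.10, 10.11 and 8.26 in RSKi47 libraries, and the groups overlapped through replicate 4. Without that library Il6 was 1.34 and Il12b 1.15 higher, and the list had 3 called higher members in place of 1, whereas without RSKi47 replicate 3 Il6 was 0.72 and Il12b 0.69 higher. In a fit of only the 8 libraries Il6 did not pass (adjusted p = 0.0767), nor did Il12b in a fit of only the WT and RSKi47 libraries (adjusted p = 0.0588). Il23a, the other subunit of IL-23, did not pass (0.22, adjusted p = 0.369).

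The chemokine list had 11 of 20 members lower, 1 higher and 8 that did not pass, with a median of -0.45, where 24.6% of all genes were lower and 27.5% higher. The 6 called members were lower (1.10% of all genes were called lower), among them Ccl24 (-1.47, adjusted p = 1.21e-21), an attractant of eosinophils, Ccl7 (-1.37, adjusted p = 4.17e-14) and Ccl2 (-1.15, adjusted p = 4.55e-14), attractants of monocytes, and Cxcl11, a ligand of CXCR3 (-1.15, adjusted p = 0.00126). Cxcl2, a neutrophil attractant, was the 1 member that was higher (0.85, adjusted p = 1.85e-11). Ccl7 was at 13.70, 13.50, 13.51 and 14.13 in WT and 12.51, 12.58, 12.43 and 11.84 in RSKi47 libraries, and it was also lower without LPS (-1.01, adjusted p = 1.79e-10), as were Ccl2 (-1.09, adjusted p = 1.15e-14) and Ccl6, another of the 6 (-1.06, adjusted p = 1.7e-08). Cxcl11 rested on RSKi47 replicate 4 (6.33, against 8.02 to 8.71 in the other 3). Without it the difference was -0.62 (adjusted p = 0.0833) and the called chemokines were 3. Cxcl10, another ligand of CXCR3, did not pass (-0.09, adjusted p = 0.776).

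Ifnb1, the gene of IFN-β (chr4:88522025-88522794), was the cytokine with the largest increase. It was at 8.43, 8.19, 7.81 and 8.51 in the WT libraries and at 10.62, 11.36, 11.52 and 8.93 in the RSKi47 libraries, all 4 above every WT library, although replicate 4 was close to them. The level was 5.17-fold higher (difference 2.37 ± 0.30 SE, adjusted p = 1.23e-10), and the difference was 2.93 without replicate 4. Of the IFN-α genes, named after their values were seen, Ifna2 and Ifna5 were higher with RSKi47 (2.63-fold and 2.82-fold). Their values were below the expression floor in every WT library (1.43 to 1.64). With RSKi47 they were at 1.80 to 3.50, in part also below it, so the size of these folds is uncertain. Ifna4 was below the filter and was not tested (1.12 to 1.20 in WT, 1.29 to 2.65 with RSKi47). These intronless genes are close copies of each other, so the division of reads among them is uncertain. IFN-stimulated genes did not follow as a group at 2 h: of 35 tested, 2 were lower, 2 were higher and 31 did not pass, with a median of 0.08. The higher ones included Oas3 (0.94, adjusted p = 7.49e-05), an antiviral synthetase, and those that were lower were Mx2 and Irf1. Without RSKi47 replicate 4 Oas3 passed 2-fold (1.23). The same list without LPS had 19 of 35 members higher and none lower, with a median of 0.46, where 3205 of all genes tested (26.8%) were higher and 3145 (26.3%) lower by adjusted p. Ifnar1, one chain of the receptor for IFN-α and IFN-β, was lower by 0.60 on the log2 scale (adjusted p = 3.46e-20).

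**Figure D2:**
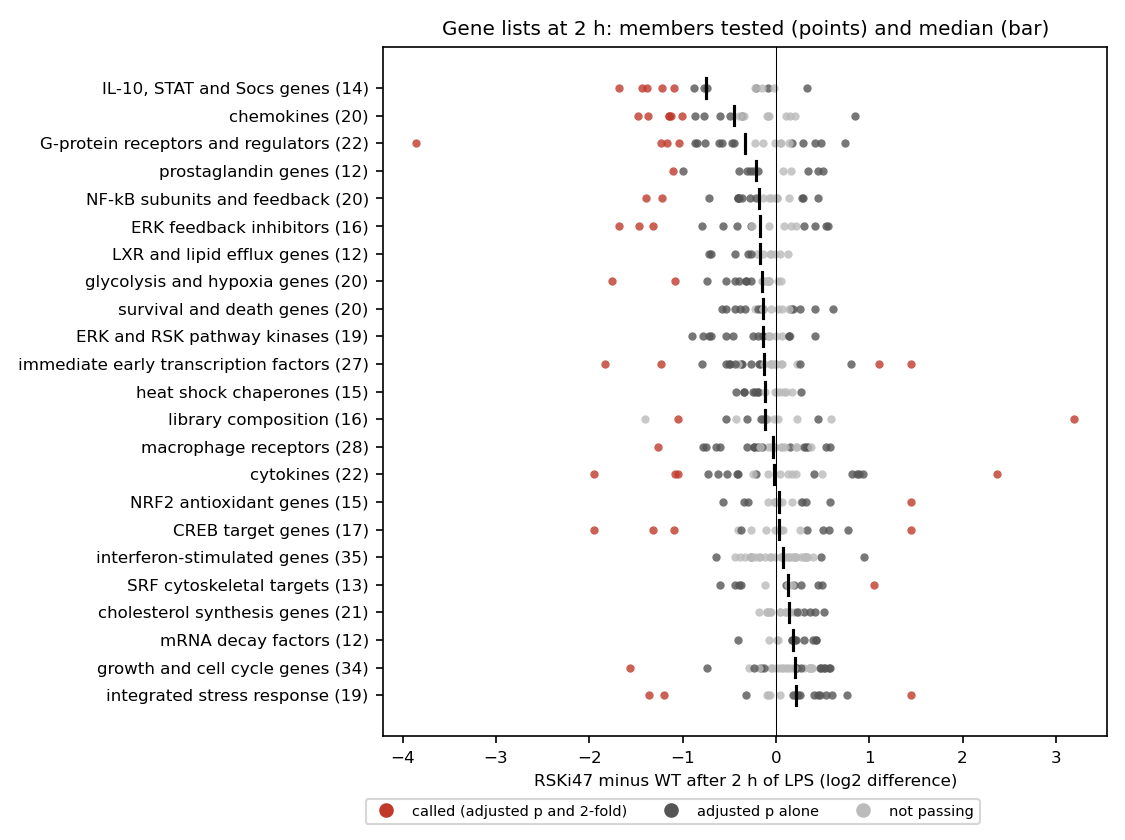
Difference at 2 h, RSKi47 minus WT (log2, horizontal axis), of every tested member of the gene lists (points), with the median of each list as a bar. The median of the IL-10, STAT and Socs list was -0.75 and that of the chemokines -0.45, while the medians of the other lists ran from -0.33 to 0.22.

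The NF-κB list, of subunits and their inhibitors, had 10 of 20 members lower, 3 higher and 7 that did not pass (median -0.18). The called members were Tnip3 (-1.40, adjusted p = 1.71e-18), a gene of the ABIN family that inhibits NF-κB, and Bcl3. The NF-κB inhibitors Nfkbia (-0.37) and Tnfaip3 (-0.72) also passed, while the subunit gene Nfkb1 did not (-0.07). Of 12 mRNA decay factors 8 were higher and 1 lower (median 0.19). The higher ones included Rc3h1 (0.43) and Rc3h2 (0.39), the roquin genes. The lower one was Zfp36, which encodes tristetraprolin (-0.41, adjusted p = 0.000437).

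Several genes of metabolism, prostaglandin synthesis and growth were among the lower ones. Pfkfb3, which makes the activator of the glycolytic enzyme phosphofructokinase, was at 12.19, 12.26, 12.62 and 11.81 in WT and 10.47, 10.55, 10.48 and 10.37 in RSKi47 libraries (3.37-fold lower, adjusted p = 1.37e-26), although without LPS it was higher (0.59, adjusted p = 3.31e-07). Eno1, the gene of enolase, was lower at 2 h (-1.08) and without LPS (-0.73), and 9 of the 20 glycolysis and hypoxia genes were lower and none higher (median -0.15). Ptges, the PGE2 synthase, was at 8.36 to 8.64 in WT and 7.25 to 7.72 in RSKi47 libraries (-1.11, adjusted p = 6.54e-12), whereas Ptgs2, which encodes cyclooxygenase-2, was higher (0.51, adjusted p = 0.026). The groups overlapped for Ptgs2 through RSKi47 replicate 4 (12.51, against 12.40 to 12.70 in WT). Of the 12 prostaglandin genes 7 were lower and 3 higher (median -0.22). Ccnd2, a G1 cyclin, was the only called member of the 34 growth and cell cycle genes (-1.56, adjusted p = 8.5e-14), of which 5 were lower, 9 higher and 20 did not pass (median 0.21). RSKi47 replicate 4 was the lowest library for Ccnd2 (9.26, against 10.54 to 10.72 in the other 3).

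Il1r1, the IL-1 receptor, was at 4.94 to 5.38 in WT and 3.86 to 3.99 in RSKi47 libraries (2.39-fold lower, adjusted p = 8.51e-16), and was the only called member of 28 macrophage receptors (10 lower and 6 higher, where 24.6% and 27.5% of all genes were, and a median of -0.04). Cd14, the coreceptor of TLR4 for LPS, was lower by 0.75 on the log2 scale (adjusted p = 1.95e-09), and Tlr4 did not pass (-0.00). Of 22 G-protein receptors and regulators 11 were lower and 5 higher (median -0.33). Beside Sphk1 the called members included Adora2b (-1.23), an adenosine receptor, and P2ry2 (-1.04), a receptor for extracellular nucleotides. S1pr1, a receptor for the product of Sphk1, was lower by 0.85 on the log2 scale.

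Lists of stress and lipid genes were counted against the same shares of all genes, 24.6% lower and 27.5% higher. The integrated stress response list had 10 of 19 members higher and 3 lower (median 0.22). Its called members were Slc7a11, the cystine transporter (1.45, and 1.84 without LPS), which is also on the NRF2 list, and Ddit4, an inhibitor of mTORC1 (-1.36), and Cebpb, a transcription factor (-1.20). Of 15 NRF2 antioxidant genes 4 were higher and 3 lower (median 0.03), near those shares. Of 21 cholesterol synthesis genes 5 were higher and none lower (median 0.14), with Dhcr7 at 0.52. Of 12 LXR and lipid efflux genes 5 were lower and none higher (median -0.17), with Apoe at -0.72 and Msr1 at -0.44. Of 15 heat shock chaperones 7 were lower and 1 higher (median -0.12), with Hspd1 and Dnaja1 each at -0.34. Of 20 survival and death genes 8 were lower and 5 higher (median -0.14), with Bcl2l1, which encodes Bcl-xL, at -0.54 and Bak1 at 0.42.

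Part of the difference at 2 h was also found without LPS. The RSKi47 libraries without LPS are labelled with 10 min of inhibitor, so the comparisons also differ in the time with RSKi47. Without LPS 161 genes were called (42 lower and 119 higher, 1.34% of the genes tested), and 95 of them were called at 2 h, which is 59.0% of the calls without LPS and 39.7% of those at 2 h. These comparisons share no library, although deviations of same-numbered libraries of an arm were correlated, in WT not always more than those of other numbers. Of the genes called higher at 2 h 61.7% were called higher without LPS, and of those called lower 21.2% were called lower without LPS. The median difference without LPS was 1.17 for the genes higher at 2 h and -0.23 for the genes lower at 2 h, beside 0.01 over all genes. Of the 95 shared genes 94 had the same sign, and the exception was Fscn1. At 2 h and not without LPS 144 genes were called, 103 of them lower and 41 higher. Differences without LPS followed transcript length with a Spearman rho of 0.419.

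Several of the leading genes have near-identical copies, among which the counting may have split reads unevenly. Hist1h2ap, a histone gene, was at 2.45 to 3.21 in WT and 8.16 to 9.25 in RSKi47 libraries (6.11 at 2 h and 5.81 without LPS). Gm5643, a transcribed pseudogene on chromosome X, was higher by 5.92 and 5.44, while Hnrnpa1, a splicing factor gene named after its values were seen, was lower by 1.74 and 1.34 on the log2 scale. Pira4, a paired Ig-like receptor gene, was at 1.54 to 1.79 in WT and 10.53, 4.59, 7.11 and 7.78 in RSKi47 libraries, the widest spread of the 20 leading genes, and its relative Pira7 was lower at both times (-2.41 and -2.26). Rpl26, a ribosomal protein gene, and Ndufs5, a subunit of respiratory complex I, were lower at both times (-2.45 and -2.34 for Rpl26, -2.60 and -2.86 for Ndufs5). Mir6236, an annotated microRNA locus, was at 2.29 to 2.69 in WT and 5.12 to 6.11 in RSKi47 libraries, with a larger difference without LPS (6.31). The class I-like genes H2-Q8 and H2-Q6, also close copies, went in opposite directions at 2 h. H2-Q8 was at 8.16 to 8.76 in WT and 4.58 to 4.68 in RSKi47 libraries, and H2-Q6 was at 2.96 to 6.01 in WT and 6.31 to 8.25 in RSKi47 libraries. Without LPS H2-Q8 was lower (-0.98, adjusted p = 0.00953) and H2-Q6 did not pass (0.32, adjusted p = 0.678).

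Other genes also differed at both times. Mgll, monoacylglycerol lipase, was 6.69-fold higher at 2 h and 7.42-fold without LPS. Mfge8, a secreted bridge for the uptake of dying cells, was at 10.93 to 11.46 in WT and 12.90 to 14.02 in RSKi47 libraries, 4.58-fold higher at 2 h and 4.87-fold without LPS. Dach1, a transcriptional regulator, was 4.89-fold and Eef1a2, an elongation factor, 4.65-fold higher at 2 h. Cbr2, a carbonyl reductase, and Cd5l, a secreted macrophage protein, were both named after their values were seen. They were lower at 2 h (-1.80 and -1.74) and without LPS (-1.88 and -1.79). Hist1h1c, a linker histone, was lower by 1.06 and 1.00 on the log2 scale.

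**Figure D3:**
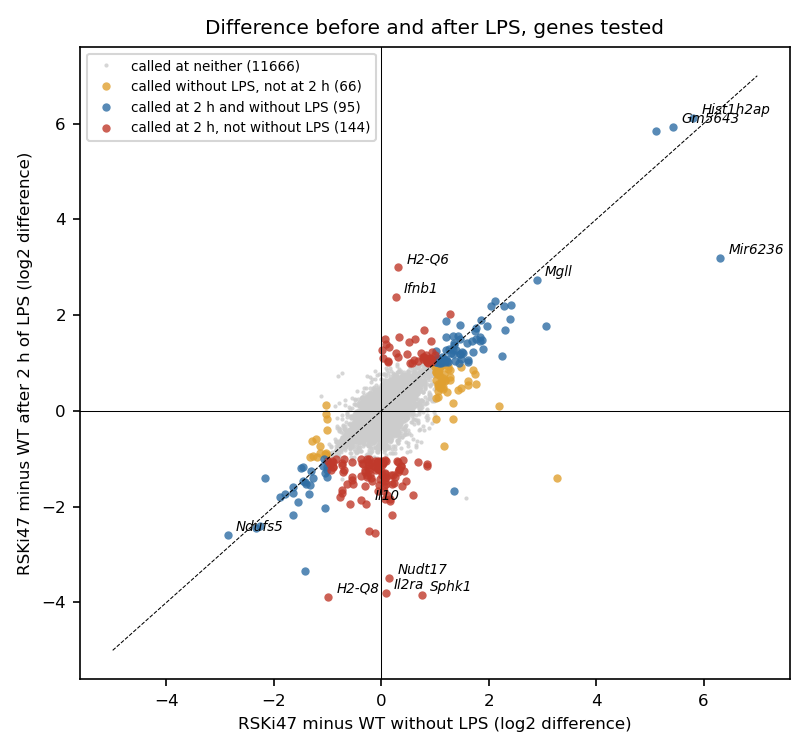
Difference between RSKi47 and WT BMDMs (log2) without LPS on the horizontal axis and after 2 h of LPS on the vertical axis, one point per gene tested, with the line of equal difference dashed. The 95 genes called at both times had the same sign at both, except Fscn1, and the 144 genes called at 2 h and not without LPS include Sphk1, Il2ra, Nudt17 and Ifnb1.

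To set aside what differed without LPS, the response to LPS (2 h minus none) was compared between the arms. In the RSKi47 arm this response also holds the longer time with the inhibitor, which cannot be told apart from LPS. The response differed for 123 genes (1.03% of the genes tested), with 112 lower and 11 higher in the presence of RSKi47, and by adjusted p alone for 1244 lower and 1271 higher. The response of Sphk1 was lower by 4.61 on the log2 scale (adjusted p = 7.08e-26), that of Il2ra by 3.88, that of Nudt17 by 3.64, that of Pfkfb3 by 2.34 and that of Il10 by 1.67. The response of Ptges was lower by 1.96 (adjusted p = 5.05e-16), more than its level at 2 h, since it was higher without LPS (0.85). Ifnb1 was higher in response by 2.10 (adjusted p = 3.96e-05) and Egr3 by 1.54 (adjusted p = 3.67e-08). The value of Egr3 is larger than its difference at 2 h, since Egr3 was lower without LPS (-0.74, limma adjusted p = 1.81e-05). Among the lists, 9 of 14 IL-10, STAT and Socs genes had a lower response and none a higher one, with a median of -0.80. For the IFN-stimulated genes 3 of 35 had a lower response and none a higher one, where 1244 of all 11971 genes tested had a lower one. The median of that list was -0.49, against 0.02 over all genes.

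The differences did not all arise at the same time. Il10 was lower with RSKi47 at 0.5 h (-1.72, adjusted p = 2.88e-09), at 1 h (-1.33, adjusted p = 1.86e-07) and at 2 h, while 1 of the 4 RSKi47 libraries at 1 h, replicate 1, stood above the WT mean. Csf2 differed most at 1 h (-2.41, adjusted p = 2.19e-21). Sphk1 and Pfkfb3 were higher with RSKi47 at 0.5 h (0.54 and 0.53) and did not pass at 1 h (0.09 and -0.04). From 1 to 2 h the mean of Sphk1 went from 3.93 to 8.17 in WT and from 4.02 to 4.32 in RSKi47 libraries, and that of Pfkfb3 from 10.42 to 12.22 and from 10.38 to 10.46. Fosl2 was higher by its mean with RSKi47 at 1 h (0.29, adjusted p = 0.0378) and lower at 2 h. At 1 h its SD was 0.55 in RSKi47 and 0.07 in WT libraries, so the difference was smaller than the spread with RSKi47. Ifnb1 was higher at 1 h (1.33, adjusted p = 3.1e-05), with no difference that passed at 0.5 h (0.60, adjusted p = 0.0921). Egr1 was higher at 1 h (1.01, adjusted p = 9.89e-08), and Il1b, Il12b and Il23a were lower at 1 h (-1.18, -1.29 and -1.61). Il12b was of the other sign at 2 h. In all, 155 genes were called at 0.5 h and 186 at 1 h.

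**Figure D4:**
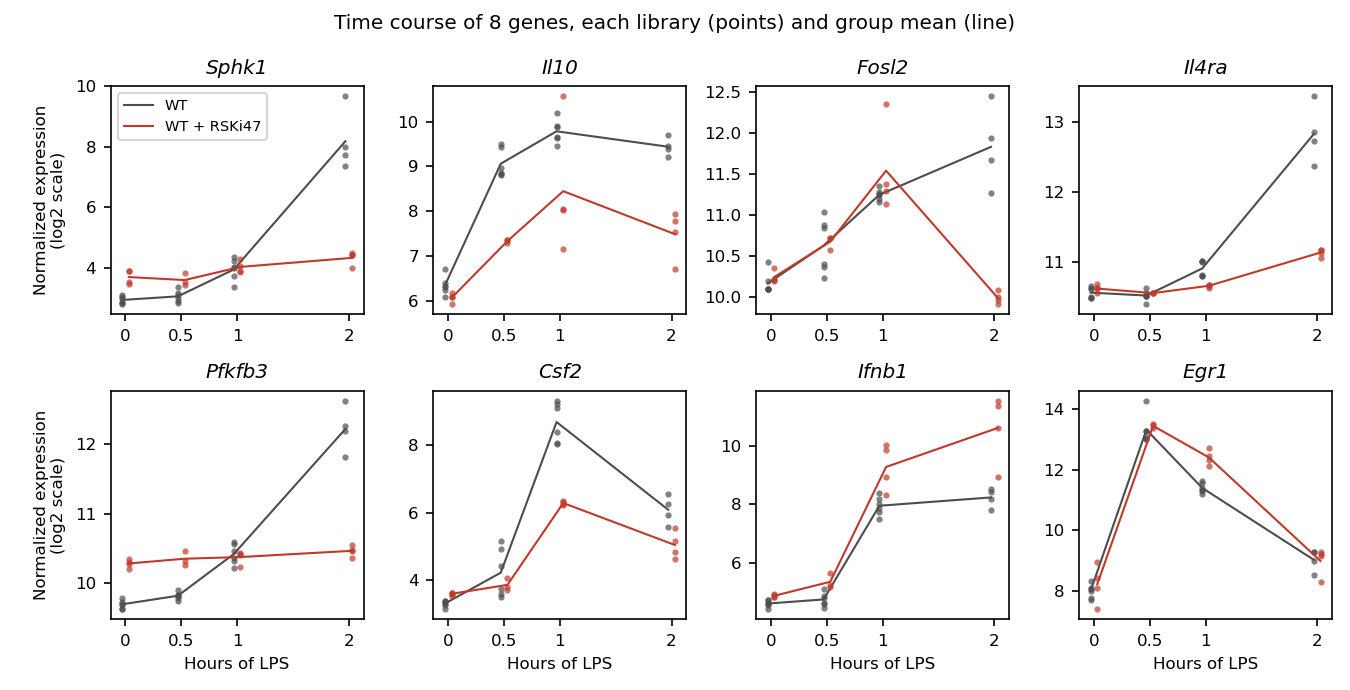
Normalized expression (log2 scale, vertical axes that differ between panels and do not start at 0) of 8 genes by hours of LPS, with one point per library and lines through the group means of WT and RSKi47-treated WT BMDMs. At 2 h the WT libraries lie above the RSKi47 libraries for Sphk1, Il4ra, Pfkfb3 and Il10, and Il10 was lower with RSKi47 at 0.5 h as well.

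RSKi47-treated cells were last set against D270A BMDMs at 2 h, in which the pathway is blocked further upstream at TPL-2. Of the genes tested 210 (1.75%) differed, 82 lower and 128 higher with RSKi47. D270A and RSKi47 cells are compared with the same WT libraries, so only the direct comparison of the 2 groups bears on their difference. These groups differ in genotype as well as inhibitor, and RSKi47 and its experiment cannot be told apart here either. Some genes that set RSKi47 apart from WT without LPS differed here too, such as Hist1h2ap (5.96), Mgll (2.88) and Ndufs5 (-2.63). Sphk1 was at a mean of 4.39 in D270A and 4.32 in RSKi47 libraries (difference -0.07, adjusted p = 0.77, against 8.17 in WT), and for Csf2 (0.18, adjusted p = 0.424), Cish (-0.15, adjusted p = 0.458) and Tnfsf9 (-0.19, adjusted p = 0.191) the difference did not pass either. Il10 was higher in RSKi47 than in D270A libraries by 0.62 (adjusted p = 0.0126), with means of 7.49 and 6.87 against 9.44 in WT. Errfi1 (0.72, adjusted p = 4.86e-05) was also higher in RSKi47 libraries, and Il2ra (-1.61), Nudt17 (-2.69), Sema4c (-1.10), Lipg (-1.60) and Pfkfb3 (-0.98) were lower, with a wide spread of Nudt17 among the D270A libraries (SD 1.40). Lipg also had a wide spread, with an SD of 1.18 in D270A and 0.98 in RSKi47 libraries.

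Of 22 cytokines 15 were higher and 2 lower in RSKi47 than in D270A libraries (median 0.77), and of 20 chemokines 5 were higher and 6 lower (median -0.19), where 26.5% of all genes tested were higher and 24.1% lower by adjusted p. Ccl6 (-1.11), Ccl12 (-0.96), Ccl24 (-0.91), Cxcl11 (-0.86), Ccl7 (-0.81) and Ccl2 (-0.70) were the lower chemokines. The spread of Cxcl11 was wide in both groups (SD 1.19 in D270A and 1.09 in RSKi47 libraries, with replicate 4 of the latter at 6.33). Egr1 was higher in RSKi47 than in D270A libraries by 1.77 (adjusted p = 7.41e-17), with means of 8.98 and 7.20 against 9.02 in WT. Il1b was higher by 1.77, Il23a by 1.92, Ptgs2 by 1.71, Il6 by 1.37 and Tnf by 0.97. Ifnb1 was highest in RSKi47 libraries (mean 10.61), followed by D270A (9.24) and WT (8.24), and the difference between RSKi47 and D270A was 1.37 (adjusted p = 1.87e-05).

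**Figure D5:**
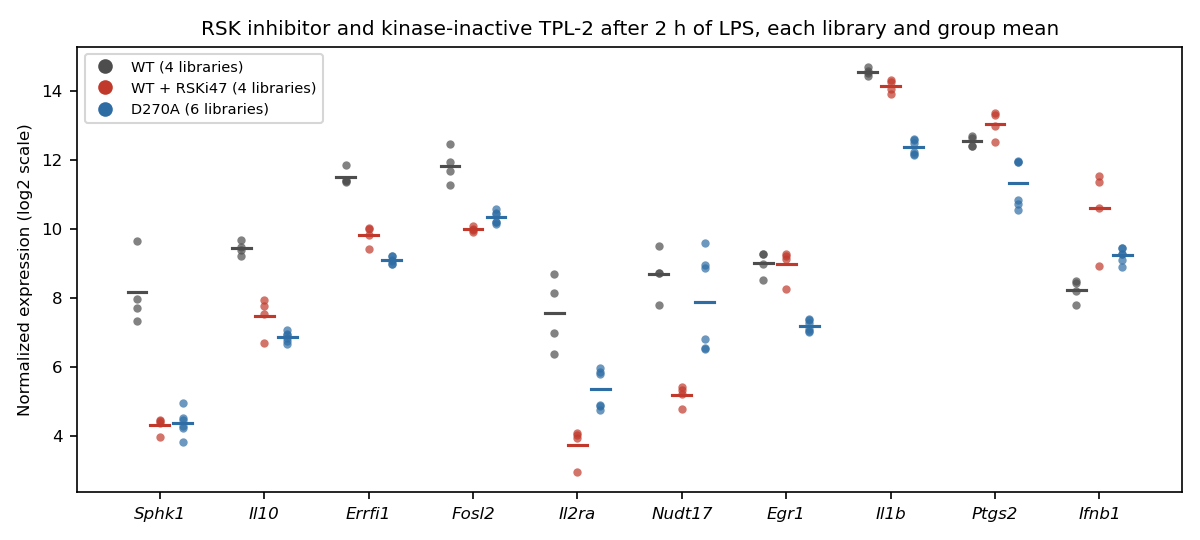
Normalized expression (log2 scale, vertical axis, not starting at 0) of 10 genes at 2 h of LPS in WT, RSKi47-treated WT and D270A BMDMs, with one point per library and a bar at each group mean. Sphk1 lies at a like low level with RSKi47 and in D270A, whereas for Egr1 and Il1b the RSKi47 libraries lie near WT and above D270A.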

How the data were processed

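RNA of mouse BMDMs was sequenced by the authors (TruSeq libraries, single-end reads, mm10 RefSeq). The submitters' processing notes name STAR 2.5.1b, RSEM 1.2.29 and DESeq2 1.10.1. The deposited values are normalized expression on a log2 scale, with no transformation stated in the sources used here, so no count model was used. Every column matched a sample (0 columns without one). Because 1 deposited value, of Fosb in an RSKi47 library at 1 h, exceeded 25, it was treated as missing.

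Of 18098 genes, 11971 with a value of at least log2 of 10 in 3 or more libraries were tested in limma 3.58.1 (R 4.3.3) in a single fit with a mean for each group and time over 119 libraries, and p values were adjusted by the Benjamini-Hochberg method over all genes tested. Calls needed an adjusted p below 0.05 together with a 2-fold change or more. Standard errors (SE) come from that fit. The labels do not say whether replicates came from separate animals, so p values measure the spread between libraries. That spread, as in the SE, is pooled over the groups of all 119 libraries and is not that of the 8 compared alone. The SD at 2 h was 1.02 in WT and 0.23 in RSKi47 libraries for Sphk1, and 0.31 and 1.19 for Ifnb1. A fit of only the 8 libraries called 236 genes. The script was checked on simulated data.

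Genes were named by rule: the 10 called genes with the largest difference in each direction whose groups do not overlap, up to 3 called members per direction of each of 23 lists, the 2 members with the smallest adjusted p for lists without calls, and 20 fixed genes. Some genes that this rule names are not reported here. Others are said to be named after their values were seen or are given as counts of their list. Further list members, such as Map3k8, Ccl2, Socs3 and Cd14, are given with their values although this rule does not name them. The members and lists were chosen with earlier results of these data known. Promoters and positions are RefSeq GRCm38.p6, where 17293 of the 18098 symbols matched.

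Deviations of same-numbered libraries at 0 and 2 h correlated at 0.46, 0.36, 0.35 and 0.62 with RSKi47 and 0.24, 0.16, 0.40 and 0.47 in WT. With RSKi47 each exceeded the highest correlation with another number (0.22 at most), but WT replicates 4 and 5 correlated as much or more with another number (0.24 and 0.32). All were above 0.1, so the replicate block was tried for the response to LPS. The 2 groups at 2 h share only replicate number 4. Alternatives were other filters, fits, scalings, thresholds, and leaving out libraries.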

Additional observations from a re-analysis of the deposited data

Results flagged for a closer look

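Over 178 pairs of a named gene and a group at 2 h, 24 had 1 library that stood apart from the other 3 by Dixon's gap-to-range measure, which chance gives in about 1 of 20 pairs. RSKi47 replicate 4 was that library in 15 of them. It was the lowest for Sphk1 (3.98), Il2ra (2.96), Lipg (4.93), Dusp1 (11.73), Nr4a3 (8.80), Nfil3 (8.30), Tnip3 (12.71), Cish (8.68), Ccnd2 (9.26), Egr1 (8.28), Egr3 (7.00) and Ifna5 (1.91), and the highest for Ndufs5 (6.65), Ctgf (4.53) and Ddit4 (5.91). Of the other RSKi47 libraries, replicate 1 stood apart for Pira7 (6.48) and Il23a (5.96), and replicate 3 for Rps6ka1 (10.85). Among WT libraries, replicate 7 stood apart for Lipg (8.65), Oas3 (11.60) and Adora2b (9.27), and replicate 6 for Errfi1 (11.84), Tnip3 (14.89) and Timp1 (8.14). What sets these libraries apart was not tested.

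The response to 2 h of LPS differed between RSKi47-treated and untreated cells, by the test of the difference itself, for 123 genes. Among named genes the largest lower responses (RSKi47 minus WT, log2) were those of Sphk1 (-4.61), Il2ra (-3.88), Nudt17 (-3.64), Mir6236 (-3.12), H2-Q8 (-2.89), Sema4c (-2.42), Pfkfb3 (-2.34) and Lipg (-2.28). In the signaling and transcription genes the values were -1.91 for Fosl2, -1.63 for Errfi1, -1.54 for Dusp2, -1.11 for Dusp1, -1.01 for Batf, -1.16 for Bcl3 and -1.20 for Tnip3. Batf was not called with the replicate block. In the cytokine and receptor genes they were -1.67 for Il10, -1.33 for Csf2, -1.06 for Tnfsf9, -1.30 for Ccl24, -1.51 for Cxcl11, -1.74 for Il4ra, -1.41 for Cish, -1.64 for Sbno2 and -1.26 for Il1r1. Mt2 (-1.92), Ptges (-1.96), Ccnd2 (-1.25), and Timp1 (-1.49) were lower in response as well. Ifna5 (1.42) and Ifna2 (1.32), whose WT means were below the expression floor at both times, had higher responses. Higher responses were also those of H2-Q6 (2.69), Ifnb1 (2.10), Egr3 (1.54), Bambi (1.26) and Klf4 (1.06). For Klf4 this was a smaller decrease with LPS, as its mean went from 8.57 to 7.32 in WT and from 8.61 to 8.42 in RSKi47 libraries.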

How the results depend on the processing

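No direction of a named gene past the adjusted p threshold of 0.05 changed under the alternatives. Lists were rerun only without RSKi47 replicate 4 and without WT replicate 7, and without the former the called higher genes were 3 in place of 1 for cytokines and 3 in place of 2 for immediate early genes. The count of 239 genes at 2 h moved with the fold required: 844 genes (397 lower and 447 higher) at 1.5-fold, 584 (284 and 300) at the natural log of 2 and 6240 (2945 and 3295) with no fold. It was 207 to 242 over the filters on low values and 228 after quantile normalization (139 lower and 89 higher). Leaving out libraries gave 211 to 252 at 2 h (116 to 140 lower and 88 to 112 higher), 143 to 181 without LPS, 104 to 150 for the response and 203 to 243 against D270A. With the replicate block, in the fit of WT and RSKi47 libraries alone, the response differed for 122 genes and without the block for 119, and 111 of the 123 remained called with it, Batf not among them. Of 1753 values of named genes under alternatives, 1727 stayed on their side of that threshold, 23 in 6 genes (Cxcl11, Il6, Fos, Il1b, Il12b and Ptgs2) missed it, and 3 (Nr4a1, Rps6ka2 and Rps6ka3) passed it; the cause was not tested. Of 60 named genes called, 8 were under 2-fold in some alternative, at nearest to 0 Csf2 -0.88, Ctgf 0.77, Cxcl11 -0.62, Eno1 -0.96, Hist1h1c -0.97, Klf4 0.93, Nfil3 -0.75 and Tnfsf9 -0.98. Precision is limited by 4 libraries per group, and what depth limits could not be assessed because the values are not read counts.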

Other observations

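Further called genes lie outside the lists and were named after their values were seen. Sgk1, a serum- and glucocorticoid-regulated kinase that is a relative of the RSKs, was at 10.91, 10.76, 10.68 and 10.81 in WT and 12.37, 12.67, 12.73 and 12.09 in RSKi47 libraries at 2 h (3.20-fold higher, limma adjusted p = 2.89e-29). It was also higher without LPS (0.80) and at 1 h (1.42). Bambi, a pseudoreceptor of the TGF-β family, was at 6.43 to 6.91 in WT and 7.61 to 8.34 in RSKi47 libraries (1.26, limma adjusted p = 4.22e-14), and differed by 0.01 without LPS. Timp1, an inhibitor of matrix metalloproteinases, was at 7.37 to 8.14 in WT and 5.44 to 5.82 in RSKi47 libraries (-1.87, limma adjusted p = 2e-15).

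Of 16 genes listed for the composition of the libraries (ribosomal, histone and long noncoding RNAs), 6 were lower and 2 higher at 2 h, with a median of -0.12. The ribosomal precursor Rn45s ranged from 15.16 to 19.81 over the WT libraries and from 15.30 to 15.91 over the RSKi47 libraries, and did not pass (-1.40, limma adjusted p = 0.145). Of the markers of other cell types, those of mast cells and red cells were below the floor in all 8 libraries, and the summed level was 5.84 to 6.33 in WT and 5.29 to 5.63 in RSKi47 libraries for B cell markers, 7.95 to 8.53 and 7.69 to 7.75 for T or NK cell markers, 6.32 to 6.53 and 6.11 to 6.40 for dendritic cell markers, and 10.75 to 10.86 and 10.41 to 10.50 for glial markers. Of the T or NK cell markers 5 of 6 were below the floor in all 8 libraries, and Cd4 was lower with RSKi47 (-0.47, limma adjusted p = 0.0498).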
